A study of Mus musculus with 24 samples.

Results

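The 52 genes described here act in mitosis, from entry into the division to the cut between the daughter cells. They were chosen by name from the deposited count table of mouse aorta, and all 52 of them were among the 21959 genes of that table. Each had enough reads to be tested, as did 14216 genes in all. By role they comprised 6 genes of mitotic entry, 5 mitotic kinases, 4 of the spindle checkpoint and 4 of anaphase. A further 7 encode kinetochore proteins, 4 the chromosomal passenger complex, 8 kinesin motors, 5 other spindle microtubule proteins, 4 cytokinesis proteins and 5 proteins of chromosome structure.

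The tissue came from 24 male mice, each taken as 1 sample as the labels give it. There were 6 ATAD3A knock-in (KI) mice on β-aminopropionitrile (KI-BAPN), 7 wild-type mice on BAPN (WT-BAPN), 5 KI mice on plain water and 6 wild-type (WT) mice on plain water. BAPN blocks lysyl oxidase, the enzyme that cross-links collagen and elastin. The mice drank it at 0.5% (w/v) for 28 days from 3 weeks of age, and the controls drank plain water over that time. RNA was taken from the whole length of the aorta, from its ascending part to the abdominal bifurcation, so each library mixes all cells of the vessel and any attached tissue. The labels name neither the strain nor the promoter or cell type that drives the knock-in.

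A dividing cell transcribes these genes late in its cycle and shuts them down after division, so their RNA is scarce in a resting tissue such as the adult aortic wall. In G1 the DREAM complex holds many of them silent through a short promoter element, the cell cycle homology region (CHR). MYBL2 and FOXM1 take over the same sites in G2, and the factor NF-Y binds CCAAT boxes close by. In a bulk sample, a change in the number of dividing cells cannot be told apart from a change of RNA per cell.

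Total counts ran from 13127645 to 26490651 per library. Values are CPM, counts divided by the library total on a common scale and adjusted with TMM factors. Changes are log2 fold changes from edgeR's quasi-likelihood test. Their standard errors were derived from that test, as the size of the change divided by the square root of its F statistic. A gene was called at a Benjamini-Hochberg adjusted p under 0.05 over all genes tested. Atad3a fitted its labels. It had 231 to 1038 CPM in KI-BAPN aortas, against 24.9 to 44.7 CPM in WT-BAPN aortas, and 615 to 1628 CPM in KI aortas, against 30.2 to 61.4 CPM in WT aortas. The log2 change was 4.14 with BAPN (adjusted p = 1.37e-08) and 4.75 without (adjusted p = 7.33e-09). All 8 smooth muscle markers were tested, and their summed level ran from 10311 to 58251 CPM over the libraries. WT replicate 5 stood apart. Its summed airway epithelium markers reached 17415 CPM, its skeletal muscle markers 5490 CPM, its B cell markers 689 CPM and its macrophage markers 2485 CPM. The sum of its smooth muscle markers was the lowest of all libraries. KI-BAPN replicate 3 was close to it in macrophage markers (2540 CPM) and smooth muscle markers (10987 CPM). By the median log2 CPM of the smooth muscle markers WT replicate 5, at 9.61, was not the lowest, with KI-BAPN replicate 3 at 8.34.

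RefSeq promoter windows of build GRCm38.p6, from 250 bases before to 50 after the annotated start, were matched to 43 of the 52 members by symbol. The CHR was searched as TTTGAA or TTCGAA and the CCAAT box as CCAAT, both on either strand, and a match is a match of letters only. At least 1 CHR stood in the windows of 34 of the 43 members (79.1%), against 21.7% of the 27025 genes with a window. A CCAAT box stood in 32 members (74.4%), against 41.1% of those genes. Both motifs were found in 29 members (67.4%), against 8.61% of the genes. The 8 stretches below come from the members with the highest mean CPM among those with a CHR that ended within 30 bases after the start. Each thus holds a CHR by choice. In Smc2 this rule passed over a CHR match nearer the start, 26 bases after it. Each is 120 bases long and reads 5′ to 3′ along the gene's own strand, with the CHR (also as its reverse complement TTCAAA) and the CCAAT box (also as ATTGG) in capitals.
Cdk1 (chr10:69352893-69353012, minus strand): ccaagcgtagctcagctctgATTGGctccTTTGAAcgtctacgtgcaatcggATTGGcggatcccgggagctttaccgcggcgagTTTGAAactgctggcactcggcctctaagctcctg
Top2a (chr11:99024178-99024297, minus strand): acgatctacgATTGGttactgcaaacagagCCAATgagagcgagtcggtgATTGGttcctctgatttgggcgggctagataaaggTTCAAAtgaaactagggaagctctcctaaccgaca
Ube2c (chr2:164769815-164769934, plus strand): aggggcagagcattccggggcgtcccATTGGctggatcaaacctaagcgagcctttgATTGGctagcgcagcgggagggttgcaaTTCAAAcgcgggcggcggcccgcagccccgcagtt
Cenpa (chr5:30666796-30666915, plus strand): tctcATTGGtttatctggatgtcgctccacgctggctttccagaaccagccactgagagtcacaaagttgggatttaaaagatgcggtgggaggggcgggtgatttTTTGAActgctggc
Racgap1 (chr15:99651627-99651746, minus strand): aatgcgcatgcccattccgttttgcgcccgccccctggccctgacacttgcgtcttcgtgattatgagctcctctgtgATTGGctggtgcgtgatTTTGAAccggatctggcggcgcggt
Mki67 (chr7:135716443-135716562, minus strand): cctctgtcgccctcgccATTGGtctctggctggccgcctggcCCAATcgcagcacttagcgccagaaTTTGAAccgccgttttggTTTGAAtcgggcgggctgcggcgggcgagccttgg
Smc2 (chr4:52438991-52439110, plus strand): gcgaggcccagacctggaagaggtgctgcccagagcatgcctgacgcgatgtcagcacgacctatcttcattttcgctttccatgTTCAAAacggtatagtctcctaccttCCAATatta
Anln (chr9:22389177-22389296, minus strand): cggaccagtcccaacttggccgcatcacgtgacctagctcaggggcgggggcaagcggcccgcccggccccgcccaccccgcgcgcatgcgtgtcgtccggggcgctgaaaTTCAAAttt

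The CHR matches of the members lay close to the start site. Between 60 bases before the start and the end of the window, 31 of the 43 members had one (72.1%), against 6.79% of all genes with a window. The 9 members with a window and no CHR were Birc5, Ccnb1, Cenpe, Mad2l1, Melk, Nek2, Nuf2, Nusap1 and Pttg1. Of these 9, 6 rose on BAPN in wild-type aortas as described below, against 41 of all 52 members and 3.44% of all genes tested. Whether the rise depends on the CHR was not tested.

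**Figure D1:**
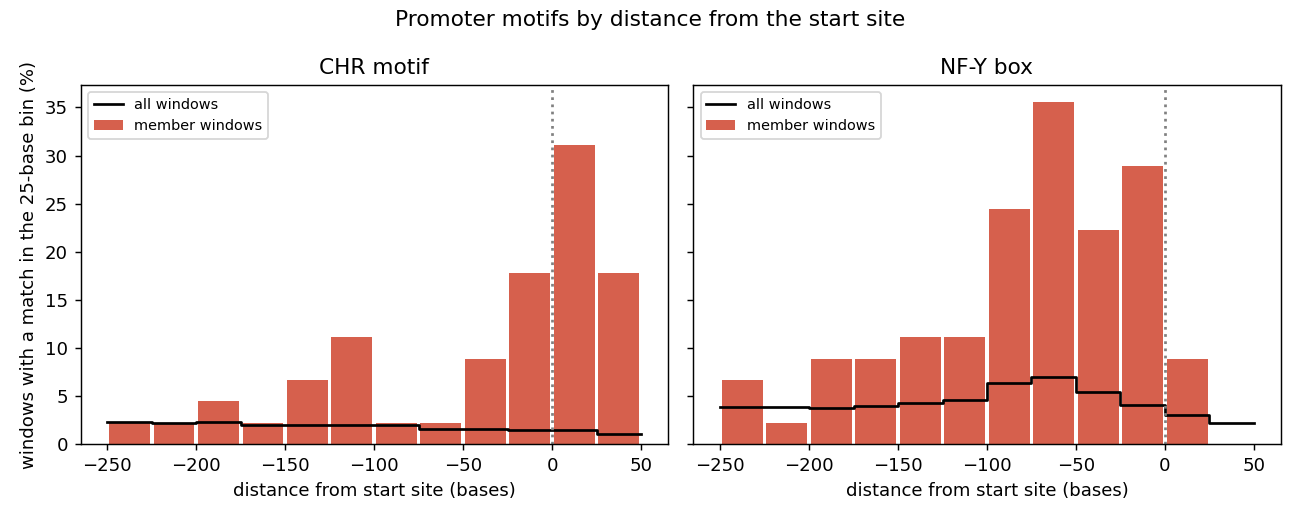
Share of promoter windows (%) with a match in each 25-base bin, by distance from the start site in bases, for the CHR (left) and the CCAAT box bound by NF-Y (right). Bars are the 45 windows of 43 members and the black line all 32851 windows; member CHR matches gather around the start site and CCAAT matches just before it.

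In wild-type mice most mitotic genes were higher on BAPN. Of the 52 genes, 41 rose and 0 fell in WT-BAPN (n = 7) against WT (n = 6) with edgeR, while 3.44% of all genes tested rose and 2.7% fell. The median log2 change over the 52 was 2.49, against -0.04 over all genes tested, and single genes ran from -0.15 for Pttg1 to 3.77 for Pbk. The change was above 0 for 51 members, against 46.6% of all genes. Taken from group medians rather than from the fit, the WT-BAPN level was 4.88 times the WT level at the median member, and above 2 times for 45 members.

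The 7 WT-BAPN aortas differed widely among themselves. In only 3 members, Tpx2, Hmmr and Iqgap3, did every WT-BAPN library lie above every WT library, against 1.27% of all genes. The summed level of the 52 genes was 247 to 1746 CPM in WT-BAPN aortas (median 441), against 222 to 363 CPM in WT aortas (median 252). WT-BAPN replicate 7 gave the highest value of its group for 49 members and replicate 1 the lowest for 46.

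**Figure D2:**
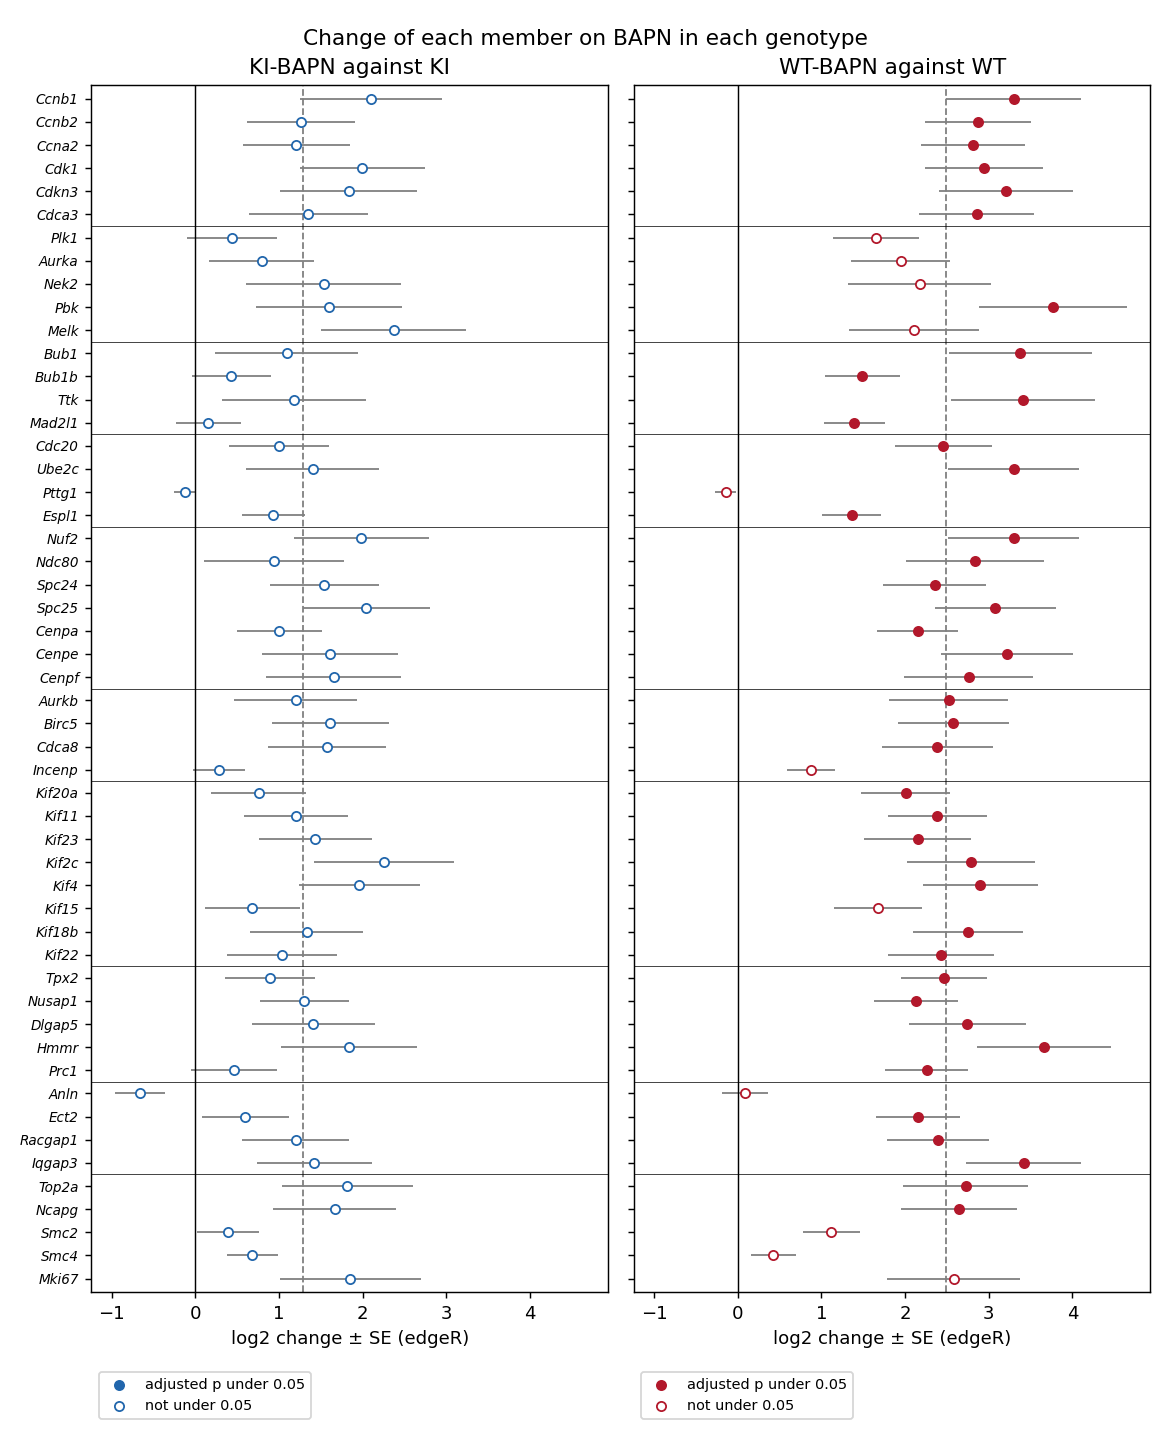
Log2 change ± SE (edgeR) of each of the 52 genes on BAPN, in KI aortas (left) and in WT aortas (right), in role order. Filled points have an adjusted p under 0.05 and dashed lines mark the median, 1.28 in KI and 2.49 in WT; 41 points are filled on the right and 0 on the left.

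All 6 genes of mitotic entry rose in WT-BAPN aortas, with log2 changes of 2.81 to 3.30. Cdk1, the kinase that starts mitosis, had 1.76 to 66.5 CPM in WT-BAPN aortas (median 7.95), against 0.685 to 5.20 CPM in WT aortas (median 1.87). The ranges overlapped, but 5 of 7 WT-BAPN libraries lay above every WT library. The log2 change of Cdk1 was 2.94 ± 0.71 (adjusted p = 0.0229). Ccna2, cyclin A2, its partner early in the division, had 2.32 to 47.3 CPM in WT-BAPN aortas (median 8.87), against 1.36 to 4.18 CPM in WT aortas (median 1.75), a log2 change of 2.81 ± 0.62 (adjusted p = 0.0163). The B-type cyclins that drive the onset of mitosis, Ccnb1 and Ccnb2, rose by 3.30 ± 0.81 and 2.87 ± 0.63 on the log2 scale. The phosphatase gene Cdkn3 and Cdca3, which promotes loss of the CDK1 inhibitor WEE1, rose by 3.20 ± 0.80 and 2.85 ± 0.69.

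Of the mitotic kinases 1 of 5 rose, and the other 4 had log2 changes of 1.65 to 2.18 that did not pass. Pbk, a kinase of dividing cells, had 1.39 to 49.6 CPM in WT-BAPN aortas (median 10.5), against 0.619 to 1.64 CPM in WT aortas (median 0.954). In Pbk 6 of 7 WT-BAPN libraries were above every WT library, and its log2 change of 3.77 ± 0.88 (adjusted p = 0.0207) was the highest of the 52. Aurka, the kinase that matures centrosomes, had 1.14 to 22.9 CPM in WT-BAPN aortas (median 3.05), against 0.428 to 2.83 CPM in WT aortas (median 1.47). Its log2 change of 1.95 ± 0.59 did not pass (adjusted p = 0.0516). Plk1, a kinase with roles throughout mitosis, changed by 1.65 ± 0.51 (adjusted p = 0.0541), and the centrosome kinase Nek2 by 2.18 ± 0.85 (adjusted p = 0.118). Melk, a kinase of proliferating cells, changed by 2.11 ± 0.77 (adjusted p = 0.0972). In WT replicate 5 Nek2 had 4.81 CPM and Melk 3.00 CPM, where the WT medians were 0.365 and 0.507 CPM.

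All 4 spindle checkpoint genes rose. These encode the proteins that delay anaphase until every chromosome is attached. Bub1 and the kinase gene Ttk rose by 3.38 ± 0.85 and 3.41 ± 0.86 on the log2 scale, from low levels. Bub1 had 0.465 to 11.3 CPM in WT-BAPN aortas (median 2.84), against 0.0856 to 0.905 CPM in WT aortas (median 0.344). Ttk had 0.310 to 8.80 CPM in WT-BAPN aortas (median 1.47), against 0 to 0.565 CPM in WT aortas (median 0.223). Bub1b, which encodes BUBR1, had 2.22 to 18.5 CPM in WT-BAPN aortas (median 5.87), against 1.31 to 7.12 CPM in WT aortas (median 1.65), and a log2 change of 1.49 ± 0.45 (adjusted p = 0.0488). Mad2l1, the CDC20 inhibitor MAD2, had 5.79 to 41.1 CPM in WT-BAPN aortas (median 8.89), against 3.68 to 9.27 CPM in WT aortas (median 4.87). It rose by 1.39 ± 0.37 (adjusted p = 0.0301), and 3 of 7 WT-BAPN libraries were above every WT library.

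Of the 4 anaphase genes, 3 rose and Pttg1 did not. Ube2c, the ubiquitin-conjugating enzyme of the anaphase-promoting complex, had 1.81 to 51.3 CPM in WT-BAPN aortas (median 7.71), against 0.770 to 3.62 CPM in WT aortas (median 1.22). It was higher than every WT library in 6 of 7 WT-BAPN libraries, with a log2 change of 3.30 ± 0.78 (adjusted p = 0.0212). The activator of that complex, Cdc20, rose by 2.46 ± 0.58, and separase, Espl1, by 1.36 ± 0.35. Securin, Pttg1, the inhibitor of separase, had 36.8 to 54.6 CPM in WT-BAPN aortas (median 49.8), against 41.9 to 63.0 CPM in WT aortas (median 52.9). Its log2 change was -0.15 ± 0.12 (adjusted p = 0.470), and it was the only one of the 52 with a fitted change below 0 in this comparison. Per kilobase of the deposited gene length, Pttg1 also had the highest mean level of the 52 over all libraries, 28.3 CPM per kb, against a median member at 0.991 CPM per kb.

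All 7 kinetochore genes rose, by 2.15 to 3.30 on the log2 scale. The kinetochore is the protein plate on the centromere that holds the spindle microtubules. Nuf2, a subunit of the NDC80 complex that grips the microtubule, had 0.672 to 31.7 CPM in WT-BAPN aortas (median 5.19), against 0.362 to 2.15 CPM in WT aortas (median 0.730), and rose by 3.30 ± 0.78 (adjusted p = 0.0210). The other subunits of that complex rose too, Spc25 by 3.08 ± 0.72, Ndc80 by 2.84 ± 0.82 and Spc24 by 2.36 ± 0.61. Cenpa, the histone H3 variant that marks the centromere, had 3.56 to 46.8 CPM in WT-BAPN aortas (median 10.9), against 2.35 to 6.67 CPM in WT aortas (median 3.31). Its log2 change was 2.15 ± 0.49 (adjusted p = 0.0186), with 5 of 7 WT-BAPN libraries above every WT library. The outer kinetochore motor Cenpe rose by 3.22 ± 0.79 and Cenpf by 2.76 ± 0.77.

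The chromosomal passenger complex corrects wrong attachments and then moves to the midzone. Its kinase Aurkb rose by 2.52 ± 0.71, survivin (Birc5) by 2.58 ± 0.66 and borealin (Cdca8) by 2.38 ± 0.66 on the log2 scale. Birc5 had 1.39 to 34.4 CPM in WT-BAPN aortas (median 4.37), against 0.732 to 3.34 CPM in WT aortas (median 1.21), with an adjusted p of 0.0282 in edgeR's test. The scaffold Incenp had 6.10 to 23.3 CPM in WT-BAPN aortas (median 11.3), against 4.36 to 13 CPM in WT aortas (median 5.88). Its change of 0.88 ± 0.29 did not pass (adjusted p = 0.0654), although all 7 WT-BAPN libraries were above the WT median.

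Of the 8 kinesin motors 7 rose, by 2.01 to 2.90 on the log2 scale. Kif11, the motor that pushes the spindle poles apart, had 1.70 to 24.9 CPM in WT-BAPN aortas (median 7.68), against 1.13 to 4.07 CPM in WT aortas (median 1.60), a log2 change of 2.38 ± 0.59 (adjusted p = 0.0251). Kif23, a motor of the central spindle, had 1.81 to 20.8 CPM in WT-BAPN aortas (median 7.26), against 0.257 to 5.94 CPM in WT aortas (median 1.39), a log2 change of 2.15 ± 0.64 (adjusted p = 0.0464). In both, every WT-BAPN library was above the WT median, and the ranges overlapped. The microtubule depolymeriser Kif2c rose by 2.79 ± 0.77, the chromosome-bound motors Kif4 and Kif22 by 2.90 ± 0.69 and 2.43 ± 0.63, and Kif18b by 2.75 ± 0.66. Kif20a, a motor of cytokinesis, rose by 2.01 ± 0.53. Kif15, which can help Kif11 to separate the poles, changed by 1.68 ± 0.53 (adjusted p = 0.0577), with 0.620 to 5.38 CPM in WT-BAPN aortas and 0.407 to 2.71 CPM in WT aortas.

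The 5 other spindle microtubule proteins all rose, and this class held 2 of the 3 genes without overlap. Tpx2, which activates Aurora A and nucleates microtubules, had 4.91 to 64.7 CPM in WT-BAPN aortas (median 11), against 2.80 to 4.69 CPM in WT aortas (median 3.05), a log2 change of 2.47 ± 0.52 (adjusted p = 0.0143). Hmmr, a microtubule-bound protein of the spindle, had 1.29 to 30.2 CPM in WT-BAPN aortas (median 4.11), against 0.407 to 1.24 CPM in WT aortas (median 0.533), a log2 change of 3.66 ± 0.80 (adjusted p = 0.0161). Prc1, the bundler of the central spindle, had 2.89 to 41.6 CPM in WT-BAPN aortas (median 9.42), against 1.41 to 3.54 CPM in WT aortas (median 2.67). It rose by 2.26 ± 0.50 (adjusted p = 0.0166), with 5 of 7 WT-BAPN libraries above all WT libraries. Dlgap5 and Nusap1, which stabilise and bundle spindle fibres, rose by 2.75 ± 0.70 and 2.13 ± 0.50.

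In cytokinesis, the final cut, 3 of 4 genes rose. Iqgap3, a scaffold protein of proliferating cells, had 2.25 to 26.4 CPM in WT-BAPN aortas (median 11.3), against 0.588 to 1.61 CPM in WT aortas (median 1.02). Its log2 change of 3.42 ± 0.68 had the smallest adjusted p of the 52 (0.0122), and its ranges did not overlap. Racgap1, the GTPase-activating protein of the central spindle, had 2.48 to 42.3 CPM in WT-BAPN aortas (median 9.21), against 1.58 to 8.25 CPM in WT aortas (median 1.94), and rose by 2.39 ± 0.61 (adjusted p = 0.0273). Its partner Ect2, which activates RhoA at the cleavage furrow, rose by 2.16 ± 0.50. Anln, the actin binder anillin, had 59.7 to 179 CPM in WT-BAPN aortas (median 79.1), against 73.2 to 112 CPM in WT aortas (median 83.9). Only WT-BAPN replicate 7 exceeded every WT library, and the log2 change was 0.08 ± 0.27 (adjusted p = 0.876).

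Of the genes of chromosome structure 2 of 5 rose. Topoisomerase II alpha, Top2a, which untangles sister DNA, had 4.65 to 84.7 CPM in WT-BAPN aortas (median 16.6), against 1.97 to 12.1 CPM in WT aortas (median 2.69), a log2 change of 2.72 ± 0.74 (adjusted p = 0.0348). The condensin subunit Ncapg rose by 2.64 ± 0.69. The core condensin subunits changed less: Smc2 by 1.12 ± 0.34 (adjusted p = 0.0535) and Smc4, with 23.1 to 66.3 CPM in WT-BAPN aortas (median 45.9), against 24.1 to 54.0 CPM in WT aortas (median 30.1), by 0.43 ± 0.27 (adjusted p = 0.343). Mki67, the coat protein of mitotic chromosomes used as a proliferation marker, had 3.77 to 83.8 CPM in WT-BAPN aortas (median 14.5), against 1.85 to 16.9 CPM in WT aortas (median 2.47). All 7 WT-BAPN libraries were above the WT median. Its log2 change of 2.58 ± 0.79 was near the median of the 52 but did not pass (adjusted p = 0.0535); the 16.9 CPM came from WT replicate 5.

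The genes that were not called were thus of different kinds. Pttg1, Anln and Smc4 had changes under 0.5 on the log2 scale and were the 3 most abundant members per kilobase. The other 8, Plk1, Aurka, Nek2, Melk, Incenp, Kif15, Smc2 and Mki67, had changes of 0.88 to 2.58, each with an unadjusted p under 0.05 in edgeR's test. In all, 49 members had an unadjusted p under 0.05 and a higher level, against 12.4% of all genes tested, and 0 a lower one, against 12.5%.

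**Figure D3:**
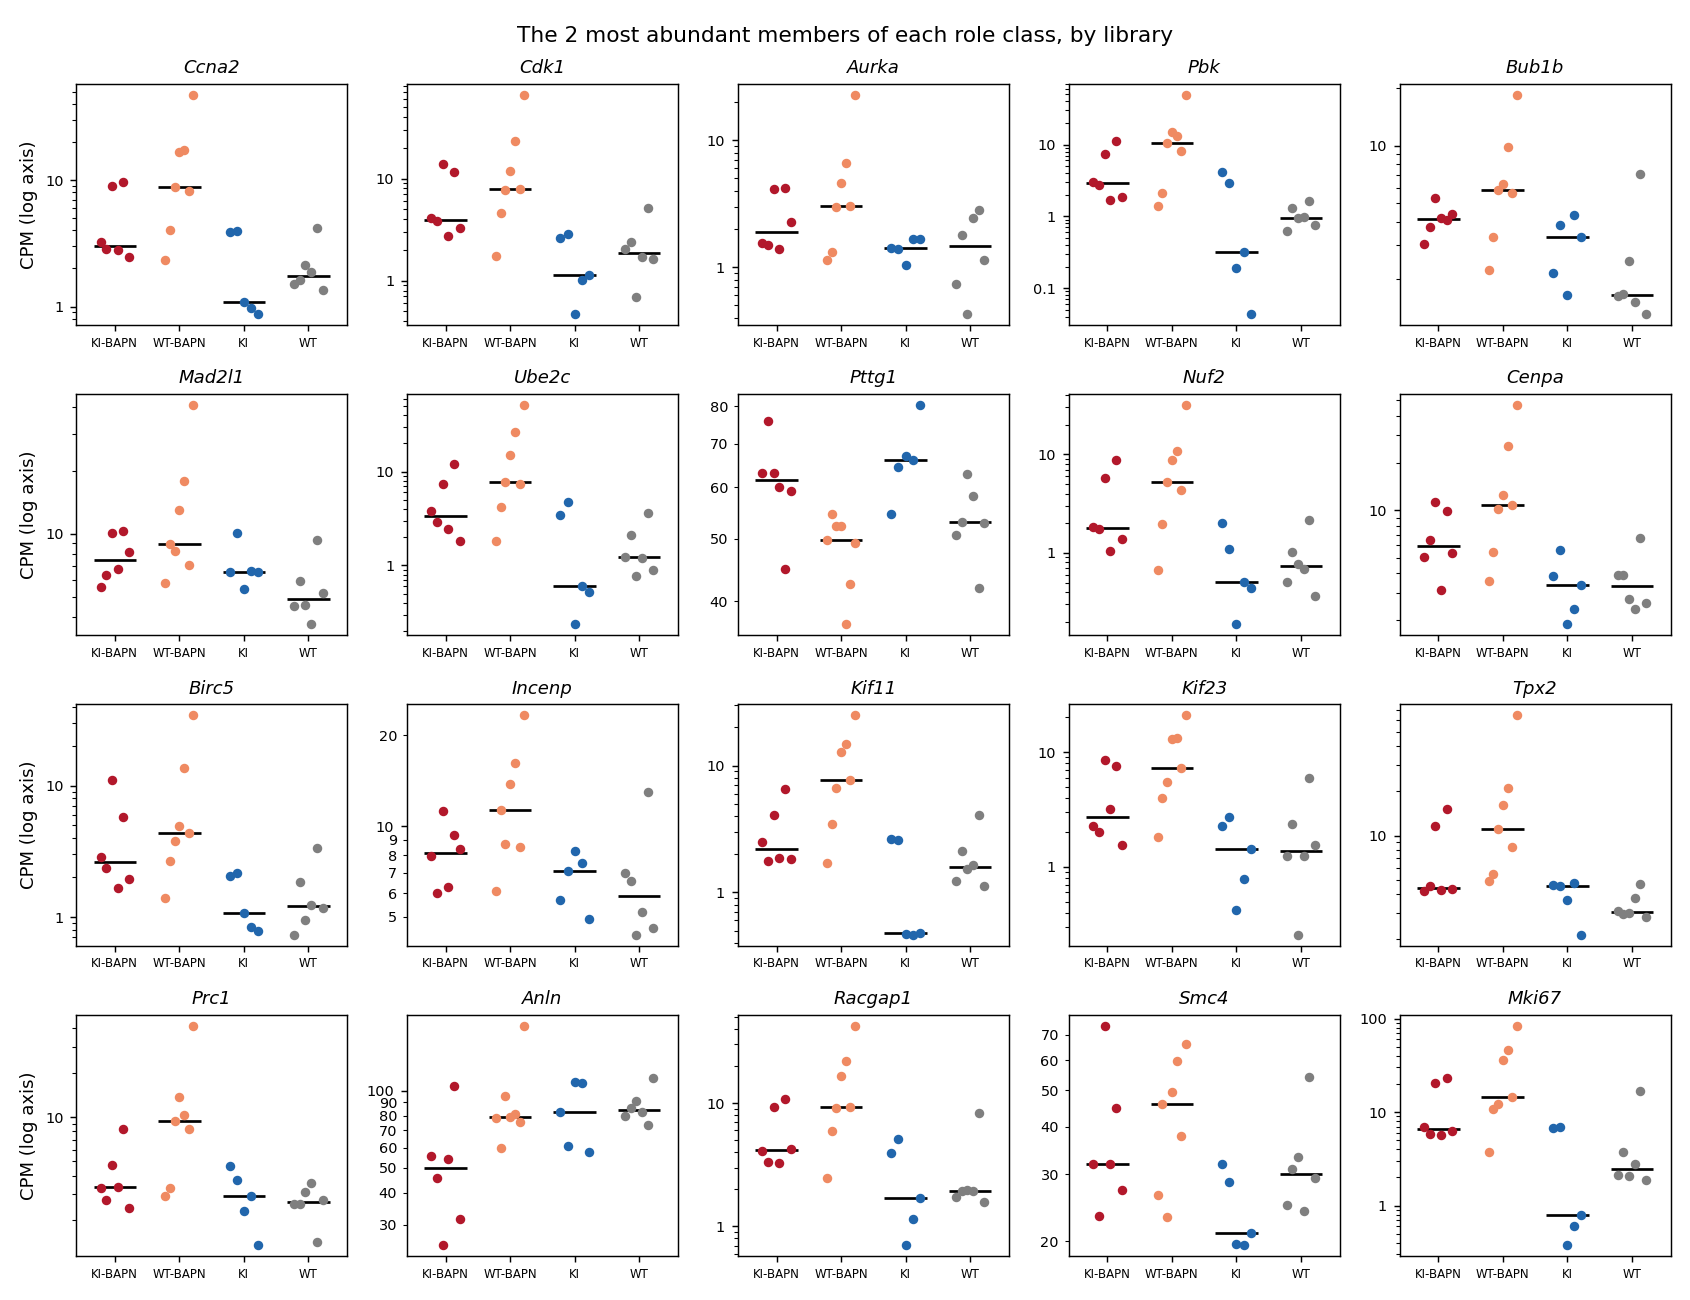
CPM on log axes in each library for the 2 most abundant members of each role class, with KI-BAPN, WT-BAPN, KI and WT from left to right. Points are libraries in replicate order and bars are medians; the rightmost WT-BAPN point, replicate 7, is the highest of its group in most panels, while Pttg1, Anln and Smc4 have the highest medians in every group.

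The rise in wild-type aortas was carried unequally by the libraries. In WT-BAPN replicates 1 to 7, the number of the 52 genes above every WT library was 4, 11, 37, 47, 50, 40 and 51. Over all genes tested that share was 12.8 to 21.8% in the same libraries. Replicates 1 and 2 thus stayed mostly inside the WT range, and the other 5 were above it for most members. WT replicate 5 was the highest WT library for 47 of the 52 genes, so it set this bar for most of them. WT-BAPN replicates 1 and 2 were below the WT median for 10 and 3 members. WT-BAPN replicate 2 summed to 318 CPM over the 52, against 363 CPM in WT replicate 5 and 222 to 257 CPM in the other WT libraries. The spread on the log2 scale within WT-BAPN had a median SD of 1.35 over the 52 genes, against 0.35 over all genes tested. Replicate 7, with the highest mitotic levels, had 1.62 CPM of T cell markers, 1.36 CPM of B cell markers and 364 CPM of macrophage markers in sum. Its smooth muscle markers summed to 43746 CPM and its endothelial markers to 216 CPM, the lowest of the group. Replicate 5, which exceeded every WT library for 50 members, had the highest sums of its group for macrophage (1162 CPM), T cell (7.26 CPM), B cell (5.48 CPM), mesothelium (220 CPM) and fibroblast markers (19413 CPM). The part of these markers in the mitotic levels was not tested.

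Markers of other tissues also differed between WT-BAPN and WT. All 6 tested airway epithelium markers, all 5 of skeletal muscle, 5 of 6 of B cells and 2 of 6 of T cells fell, as did 3 of 8 Schwann cell markers and 1 of 8 smooth muscle markers, Tagln. No macrophage (0 of 12), erythroid (0 of 5), fibroblast (0 of 10) or endothelial (0 of 8) marker was called with edgeR. At an unadjusted p under 0.05, 1, 2, 3 and 0 of them were higher, against 12.4% of all genes. The fibroblast markers summed to 11148.5 to 19413 CPM in WT-BAPN aortas, against 3417 to 9948 CPM in WT aortas, without overlap. For 3 of the 10 every WT-BAPN library lay above every WT library, against 1.27% of all genes, while 5 had a log2 change below 0. The airway markers summed to 0.212 to 8.90 CPM in WT-BAPN aortas, against 5.73 to 17415 CPM in WT aortas, with the highest value in WT replicate 5. The B cell markers summed to 0.981 to 5.48 CPM in WT-BAPN aortas, against 1.06 to 689 CPM in WT aortas. The part of these markers in the change of the mitotic genes was not tested. The same WT replicate 5 had the highest level of its group for 47 of the 52 mitotic genes. Without it 49 of the 52 rose and the median log2 change was 3.10. Without WT-BAPN replicate 7, 33 rose with a median of 1.91, and without both libraries 47 rose with a median of 2.43.

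The count of genes called depended on single libraries, controls included. It was 16 without WT replicate 1, 20 without WT replicate 4, 24 without WT-BAPN replicate 5 and 26 without WT replicate 6. The 16 genes called in every fit that left out 1 library were Ccnb2, Ccna2, Pbk, Cdc20, Ube2c, Nuf2, Spc25, Cenpa, Kif4, Kif18b, Tpx2, Nusap1, Hmmr, Prc1, Ect2 and Iqgap3. For the 41 called genes the log2 change stayed at 0.87 or more in each of those fits. Of the 41, Bub1b was called in the fewest of the 24 fits, 5, followed by Kif23 in 9 and Ndc80 in 12. Mki67, not called with all libraries, was also called in 5. The counts of calls by role class thus depend on the threshold.

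**Figure D4:**
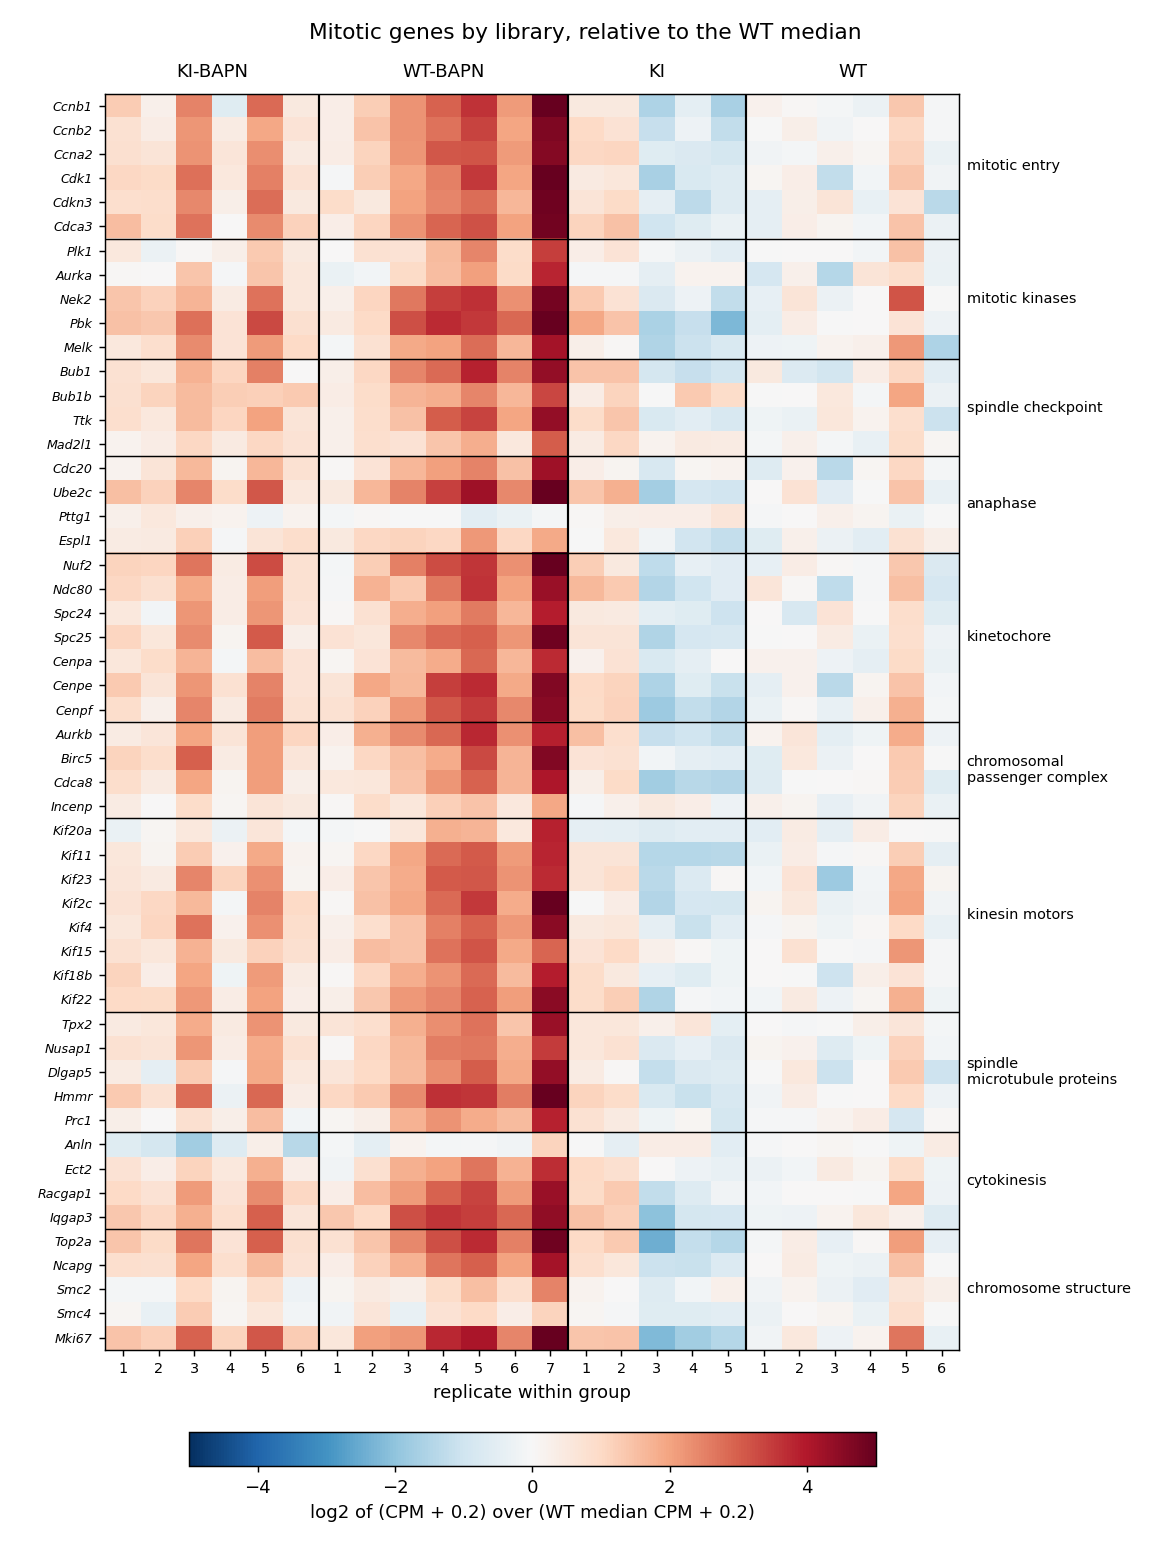
Log2 of (CPM + 0.2) over (WT median CPM + 0.2) for the 52 genes (rows, by role) in the 24 libraries (columns, replicate numbers within KI-BAPN, WT-BAPN, KI and WT). Red is above and blue below the WT median, and values past the scale take its end colour; WT-BAPN replicates 3 to 7 and KI-BAPN replicates 3 and 5 are the deepest red, the other BAPN libraries, KI replicates 1 and 2 and WT replicate 5 are paler red over most rows, and KI replicates 3 to 5 are mostly blue.

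In KI mice, BAPN gave the same direction for most genes but no call. Of the 52 members 0 rose and 0 fell in KI-BAPN (n = 6) against KI (n = 5) with edgeR, and also 0 with DESeq2 and with limma voom; 0.00703% of all genes rose and 0.0281% fell with edgeR. The median log2 change was 1.28, against -0.03 over all genes tested, and single genes ran from -0.66 for Anln to 2.37 for Melk. The change was above 0 for 50 members, and at least 1 for 36, which 6.17% of all genes reached. At an unadjusted p under 0.05, 20 members were higher, against 4.89% of all genes, and 1, Anln, was lower, against 5.21%. Only Melk and Kif20a had every KI-BAPN library above every KI library, against 0.478% of all genes. Markers of other cells moved as well in this comparison, with 0 of each list called with edgeR. At an unadjusted p under 0.05, all 12 macrophage markers were higher, with a median log2 change of 2.29, as were all 5 erythroid markers, with a median of 2.48. The macrophage markers summed to 241 to 2540 CPM in KI-BAPN aortas, against 83.8 to 288 CPM in KI aortas, and the erythroid markers to 122 to 3694 CPM in KI-BAPN aortas, against 25 to 345 CPM in KI aortas. At that level 4 of 6 airway epithelium markers were lower. Of the 10 fibroblast markers 3 were higher at that level, and all 10 had a log2 change above 0. The fibroblast markers summed to 6401 to 17694.5 CPM in KI-BAPN aortas, against 2163 to 9895 CPM in KI aortas. The part of these markers in the mitotic changes was not tested.

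The levels of KI-BAPN aortas came in 2 sets. KI-BAPN replicates 3 and 5 were both above the other 4 for 47 of the 52 genes, and they exceeded every WT library for 44 and 42 members. These 2 libraries were picked from the same levels, and the share of all genes in that order was not counted. In the other 4 libraries that number was 3 to 9. Over all genes tested the share above every WT library was 25.5% in replicate 3 and 11.2% in replicate 5. The 2 libraries differed in the markers of other cells: replicate 3 had 2540 CPM of macrophage markers, 3694 CPM of erythroid markers and 13441 CPM of adipocyte markers, against 241, 164 and 1960 CPM in replicate 5. The T and B cell markers summed to 24.5 and 69.4 CPM in replicate 3, the highest of the group, and to 0.852 and 1.46 CPM in replicate 5. The part of these markers in the mitotic levels was not tested.

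The KI aortas also fell in 2 sets. For 43 of the 52 genes KI replicates 1 and 2 were both above KI replicates 3, 4 and 5. This split was likewise picked from the same levels, and the share of all genes in that order was not counted. In KI replicates 3, 4 and 5, 30, 21 and 25 members were under 0.5 CPM, against 1 and 0 members in KI replicates 1 and 2. The sets also differed in other markers. The airway epithelium markers summed to 0.550 and 4.24 CPM in KI replicates 1 and 2, against 192, 26.7 and 34.3 CPM in KI replicates 3, 4 and 5. The fibroblast markers summed to 9895 and 9177 CPM in KI replicates 1 and 2, against 5638, 6397 and 2163 CPM in the other 3 libraries, and their part in the mitotic levels was not tested. The CPM of the 52 genes summed to 233 to 529 in KI-BAPN aortas, against 212 to 291 in KI aortas.

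**Figure D5:**
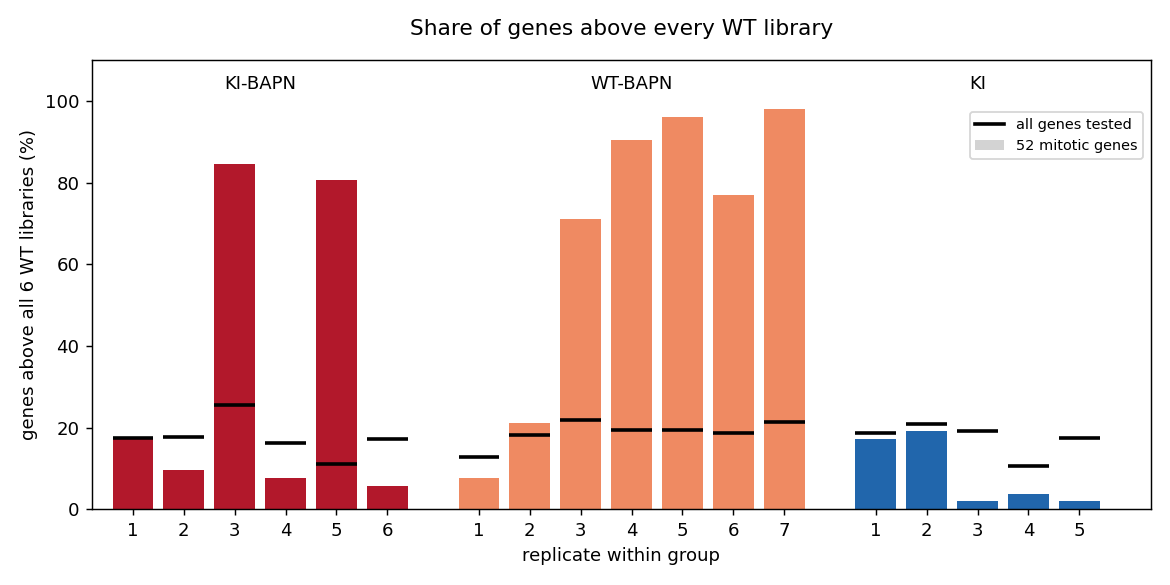
Share (%) of the 52 mitotic genes (bars) and of all genes tested (black lines) that were above all 6 WT libraries in each KI-BAPN, WT-BAPN and KI library. WT-BAPN replicates 3 to 7 and KI-BAPN replicates 3 and 5 stand far above their lines, and the other libraries lie near or under them. WT replicate 5 was the highest WT library for 47 of the 52 genes and so set the bar for most of them.

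Cdk1 had 2.76 to 13.8 CPM in KI-BAPN aortas (median 3.94), against 2.63, 2.84, 0.470, 1.02 and 1.13 CPM in KI aortas. In this gene 5 of 6 KI-BAPN libraries were above every KI library, and the log2 change was 2.00 ± 0.75 (adjusted p = 0.357). Ccna2 had 2.47 to 9.61 CPM in KI-BAPN aortas (median 3.03), against 3.85, 3.93, 1.08, 0.971 and 0.872 CPM in KI aortas, with a change of 1.21 ± 0.64 (adjusted p = 0.526). Here only KI-BAPN replicates 3 and 5 exceeded all KI libraries. Pbk had 1.68 to 11.2 CPM in KI-BAPN aortas (median 2.88), against 4.16, 2.88, 0.188, 0.324 and 0.0436 CPM in KI aortas, a span that set KI replicates 1 and 2 apart from the others. Aurka had 1.38 to 4.20 CPM in KI-BAPN aortas (median 1.90), against 1.41, 1.40, 1.03, 1.66 and 1.66 CPM in KI aortas, which were close to each other, and 3 of 6 KI-BAPN libraries lay above them.

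Among checkpoint and anaphase genes, Bub1b had 3.04 to 5.33 CPM in KI-BAPN aortas (median 4.13), against 2.16, 3.85, 1.65, 4.35 and 3.31 CPM in KI aortas. Mad2l1 had 5.57 to 10.3 CPM in KI-BAPN aortas (median 7.47), against 6.56, 10.1, 5.46, 6.66 and 6.59 CPM in KI aortas. These genes overlapped throughout, with log2 changes of 0.43 ± 0.47 and 0.15 ± 0.39. Ube2c had 1.84 to 12.1 CPM in KI-BAPN aortas (median 3.37), against 3.46, 4.71, 0.235, 0.601 and 0.523 CPM in KI aortas, with a change of 1.40 ± 0.79 (adjusted p = 0.552). Pttg1 was again level, with 44.9 to 76.0 CPM in KI-BAPN aortas (median 61.6), against 54.5, 64.6, 67.1, 66.1 and 80.4 CPM in KI aortas.

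At the kinetochore, Nuf2 had 1.04 to 8.76 CPM in KI-BAPN aortas (median 1.78), against 2.00, 1.09, 0.188, 0.509 and 0.436 CPM in KI aortas, a log2 change of 1.99 ± 0.81 (adjusted p = 0.406). Cenpa had 3.11 to 11.3 CPM in KI-BAPN aortas (median 5.94), against 3.85, 5.60, 1.88, 2.36 and 3.36 CPM in KI aortas, a log2 change of 1.0 ± 0.51 (adjusted p = 0.520). The highest KI value of Nuf2 came from KI replicate 1 and that of Cenpa from KI replicate 2, as in most members. Birc5 had 1.68 to 11 CPM in KI-BAPN aortas (median 2.63), against 2.04, 2.18, 1.08, 0.832 and 0.785 CPM in KI aortas, and 4 of 6 KI-BAPN libraries exceeded all of KI. Incenp, with 5.99 to 11.2 CPM in KI-BAPN aortas (median 8.17), against 5.70, 7.12, 8.28, 7.54 and 4.93 CPM in KI aortas, changed by 0.29 ± 0.31.

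The motor Kif11 had 1.77 to 6.57 CPM in KI-BAPN aortas (median 2.18), against 2.63, 2.61, 0.470, 0.462 and 0.480 CPM in KI aortas. Kif23 had 1.55 to 8.54 CPM in KI-BAPN aortas (median 2.73), against 2.28, 2.72, 0.423, 0.786 and 1.44 CPM in KI aortas. Their log2 changes were 1.21 ± 0.62 and 1.44 ± 0.68, with all 6 KI-BAPN libraries above the KI median in both. Kif20a, without overlap, had 1.15 to 2.37 CPM in KI-BAPN aortas (median 1.5), against 1.02, 1.01, 0.894, 0.971 and 0.959 CPM in KI aortas, yet a change of only 0.76 ± 0.57 (adjusted p = 0.661). Melk had 0.830 to 3.43 CPM in KI-BAPN aortas (median 1.13), against 0.668, 0.545, 0.0470, 0.139 and 0.218 CPM in KI aortas, a change of 2.37 ± 0.87 (adjusted p = 0.338). Melk also had the smallest adjusted p of the 52 in this comparison.

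Tpx2 had 4.23 to 15.2 CPM in KI-BAPN aortas (median 4.45), against 4.64, 4.55, 3.67, 4.76 and 2.14 CPM in KI aortas, a log2 change of 0.89 ± 0.53. Prc1 had 2.40 to 8.27 CPM in KI-BAPN aortas (median 3.34), against 4.64, 3.73, 2.30, 2.91 and 1.35 CPM in KI aortas, a change of 0.46 ± 0.52. In both, 2 KI-BAPN libraries exceeded all KI libraries and the rest lay among them. Anln had 24.9 to 104 CPM in KI-BAPN aortas (median 49.8), against 82.2, 61.0, 108, 107 and 57.7 CPM in KI aortas. It was the one member with a lower level at an unadjusted p under 0.05, with a log2 change of -0.66 ± 0.30 (adjusted p = 0.456). Racgap1 had 3.25 to 10.8 CPM in KI-BAPN aortas (median 4.17), against 3.93, 5.10, 0.705, 1.16 and 1.70 CPM in KI aortas. Smc4 had 23.2 to 73.9 CPM in KI-BAPN aortas (median 31.9), against 31.9, 28.7, 19.7, 19.5 and 21 CPM in KI aortas. Mki67 had 5.62 to 22.9 CPM in KI-BAPN aortas (median 6.66), against 6.80, 6.96, 0.376, 0.601 and 0.785 CPM in KI aortas, where the first 2 libraries lay close to the KI-BAPN median and the others under every WT library.

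WT replicate 5 and KI replicates 1, 2 and 5 were also left out together. Earlier results of these data had singled them out as rich in other tissue. Without them the median log2 change was 2.67 for KI-BAPN against KI, still with 0 calls. KI replicates 1 and 2 were 2 of those and held the highest mitotic levels of their group, so that value follows in part from the choice. The marker sums here do not bear out that choice throughout. KI replicate 1, left out, had 0.550 CPM of airway epithelium markers, while KI replicate 3, kept, had 192 CPM. Leaving out 1 library at a time moved the median between 0.94, without KI-BAPN replicate 5, and 1.63, without KI replicate 1.

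The knock-in alone gave no call among the mitotic genes. In KI against WT 0 members were called with edgeR, DESeq2 and limma voom, while 0.0985% of all genes rose and 0.0914% fell with edgeR. Only Pttg1 had an unadjusted p under 0.05, where 8.66% of all genes were higher and 8.27% lower, with a log2 change of 0.32 ± 0.13 (adjusted p = 0.213). The median log2 change was -0.16, from -1.39 for Kif2c to 0.55 for Pbk, with 36 members below 0 and 16 above it, where 49% of all genes were above it. Kif2c, the depolymerising motor, had 0.471, 0.700, 0.0470, 0.185 and 0.174 CPM in KI aortas, against 0.342 to 2.54 CPM in WT aortas (median 0.489). The highest WT value of Kif2c lay far from the WT median, and the median over the 52 turned to 0.23 without WT replicate 5.

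With BAPN in both genotypes, the mitotic genes were lower in KI-BAPN than in WT-BAPN aortas, but no difference was called. With edgeR, DESeq2 and limma voom 0 of 52 members passed, and 0% of all genes were called lower with edgeR. The median log2 change was -1.41, against -0.02 over all genes tested, and 51 members were below 0 and 1 above it, where 47.5% of all genes were above it. At an unadjusted p under 0.05, 38 members were lower, against 6.68% of all genes, and 1, Pttg1, was higher, against 7.27%, by 0.34 ± 0.12 (adjusted p = 0.263). The group medians of KI-BAPN stood at 0.422 times those of WT-BAPN at the median member. Dlgap5 had the largest difference, with 0.377 to 2.74 CPM in KI-BAPN aortas (median 0.874), against 0.981 to 16.4 CPM in WT-BAPN aortas (median 2.68), a log2 change of -2.02 ± 0.67 (adjusted p = 0.248). Kif20a had the smallest adjusted p, 0.243, with a log2 change of -1.87 ± 0.53. Most of the count at an unadjusted p rested on 1 library: without WT-BAPN replicate 7 it was 6 members, against 8.02% of all genes, and the median log2 change was -0.83.

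Whether the response to BAPN differed between genotypes was tested as an interaction, the change in KI minus the change in WT. No member passed with edgeR, DESeq2 or limma voom, and 0% of all genes did with edgeR. The larger number of calls in WT than in KI is therefore not shown to be a difference between the genotypes. The median interaction was -1.18 on the log2 scale, with 49 members below 0 and values from -2.28 for Bub1 to 0.27 for Melk. Mad2l1, Tpx2, Prc1, Ect2 and Iqgap3 had an unadjusted p under 0.05, 5 members against 8.21% of all genes below 0 at that level. Prc1 had the smallest adjusted p, 0.291, at -1.79 ± 0.70. Without WT-BAPN replicate 7, 0 members were below 0 at an unadjusted p under 0.05, against 10.2% of all genes, and the median was -0.56. Without WT replicate 5 there were 20, against 9.85% of all genes, and the median was -1.66.

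Averaged over the genotypes, 40 of the 52 genes rose on BAPN and 0 fell with edgeR, with 1.98% of all genes higher and 2.17% lower. The median log2 change was 1.96, from -0.29 for Anln to 2.75 for Hmmr. Iqgap3 again had the smallest adjusted p (0.0120), at 2.42 ± 0.49. Melk and Mki67, which had missed the threshold in WT alone, rose here by 2.24 ± 0.58 and 2.22 ± 0.58. Bub1b, Mad2l1 and Ndc80 were called in WT and not in the average. Without KI replicate 5 the average gave 21 calls, and without WT replicate 5 it gave 50. With the replicate number fitted as a block, described below, it gave 5. In this average 5 of 6 airway epithelium markers, 4 of 5 skeletal muscle markers and 5 of 8 Schwann cell markers fell. For each of these lists WT replicate 5 had the highest sum of all 24 libraries. Of the 12 macrophage markers 1 rose. At an unadjusted p under 0.05, 10 of the 12 macrophage markers and all 5 erythroid markers were higher, against 9.46% of all genes. The part of these markers in the averaged changes was not tested.

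Genes around the 52 were read from lists chosen with earlier results of these data known. Of 50 other mitotic genes tested, 36 rose and 0 fell in WT-BAPN against WT, where 3.44% of all genes rose, with a median log2 change of 2.09. Leaving out WT replicates 1, 4 or 6 brought these calls to 14, 18 and 21, and leaving out WT-BAPN replicate 5 to 19. Mastl, the Greatwall kinase, had the smallest p and no overlap. It had 1.39 to 9.64 CPM in WT-BAPN aortas (median 4.23), against 0.462 to 0.941 CPM in WT aortas (median 0.705). Its log2 change was 2.58 ± 0.40, beside 2.99 ± 0.60 for the kinetochore gene Cenph, 1.87 ± 0.35 for the spindle gene Tacc3 and 1.28 ± 0.24 for the condensin gene Ncapd2. Of 29 genes of S phase, the stage of DNA synthesis, 5 rose and 0 fell, with a median of 0.73. That count was 1 without WT-BAPN replicate 5 or any of WT replicates 1, 4 and 6, 2 without WT replicate 2 or 3, and 3 without WT-BAPN replicate 3 or 7. It was 9 without WT-BAPN replicate 1 and 11 without WT replicate 5. Among them were Gins2, Mcm10, Chaf1b and Cdc45, with log2 changes of 1.55, 1.84, 1.39 and 1.09. The 52 and the other mitotic genes thus had higher median changes than the S phase genes, and that contrast was not tested.

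Among 20 regulators that activate the cycle, 4 rose and 1 fell in WT-BAPN against WT, where 3.44% of all genes rose and 2.7% fell. Calls in either direction numbered 0 without WT replicate 1, 1 to 3 without any one of WT replicates 2 to 4 or WT-BAPN replicates 3 to 6, and 7 without WT replicate 5. Foxm1, the activator of G2 and M genes, rose by 1.60 ± 0.42 and Mybl2, which turns DREAM into an activator, by 1.26 ± 0.33. Cks2, a CDK1-binding subunit, rose by 1.92 ± 0.51 and Cdk2 by 0.54 ± 0.13. The D-type cyclin Ccnd2 fell, by 0.68 ± 0.19, with 96.3 to 195 CPM in WT-BAPN aortas (median 112), against 176 to 237 CPM in WT aortas (median 210). Of 21 regulators that repress, 0 were called with edgeR, against 2 with DESeq2 and 6 with limma voom. At an unadjusted p under 0.05 in edgeR, 2 were higher, against 12.4% of all genes, and 3 lower, against 12.5%. Rbl1, the pocket protein p107, had the smallest p of them, with a log2 change of 1.19 ± 0.37 (adjusted p = 0.0562). In KI-BAPN against KI none of these 4 lists held a call with edgeR, DESeq2 or limma voom. At an unadjusted p under 0.05 in edgeR, 7 of the 50 other mitotic genes, 2 of the 29 S phase genes and 3 of the 20 activating regulators were higher, as was 1 of the 21 repressing regulators, against 4.89% of all genes. At the same level 1 other mitotic gene and 4 repressing regulators were lower, against 5.21% of all genes.

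Some members share their sequence space with other genes. In the GENCODE M21 annotation, exons of 13 members overlap exons of another gene, and for 9 (Ccna2, Cdc20, Cdca8, Kif20a, Kif4, Ncapg, Nusap1, Prc1 and Ube2c) that gene codes for a protein on the opposite strand. The strand setting of the authors' counting is not stated in the labels, so reads of such pairs may be mixed. Pseudogenes of Ccnb1, Ccnb2, Kif22 and Kif4 are annotated, and reads of these genes are uncertain to that extent.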

How the data were processed

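Poly(A) RNA of 24 mouse aortas was sequenced. The deposited table holds raw read counts per gene, made by the authors and not normalized. The submitters' processing notes name Trim Galore and FastQC, the aligner HISAT2, DESeq2, and GRCm38 with mm10. The read counter, its strand setting and the versions are not stated there. Gene lengths are those of the deposited table. Its positions differ from GRCm38 annotation, so none are printed, and promoter windows come from RefSeq on GRCm38.p6.

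The counts were fitted in R 4.3.3 with edgeR 4.0.16, using a mean for each of the 4 groups, TMM scaling, the filterByExpr rule by group and the robust quasi-likelihood F test, on 14216 genes. Calls need a Benjamini-Hochberg adjusted p under 0.05 over all of them. Comparisons were BAPN within genotype, genotype within treatment, their interaction and the average of BAPN over genotypes. The 52 genes, the other lists and the tests were chosen with earlier results of these data known. Values per library are given for the 2 members of each role class with the highest mean CPM, the extremes of each comparison and members that differ from their class. Up to 4 genes of each other list are named by smallest p in WT. The values of 1 such gene are not reported here. Values per library of Bub1, Hmmr, Iqgap3, Kif15, Kif20a, Melk, Nek2, Top2a and Ttk were added after they were seen. Alternatives were DESeq2 1.42.0, limma voom 3.58.1, other factors and filters, a replicate block, and libraries left out. No 2 libraries of a group agreed within sampling noise (smallest chi-square per degree of freedom 25.9). Nothing in the labels says whether mice shared a litter or a preparation. The tests were checked on simulated counts.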

Additional observations from a re-analysis of the deposited data

Results flagged for a closer look

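In groups of 4 to 10 libraries, a library is listed here when its gap to the nearest other library is large against the range of its group (Dixon's test at 95%). Chance alone gives this in about 1 in 20 groups if the values are normally distributed. The test was run on CPM, not on a log scale. The 52 genes moved together and flags over all genes were not counted, so the counts below do not measure how rare such libraries are. Most of these values came from 2 libraries. WT-BAPN replicate 7 stood apart for 30 of the 52 genes and WT replicate 5 for 27, against 3 for KI-BAPN replicate 5 and 1 each for KI replicates 2 and 3.

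WT-BAPN replicate 7 had 1746 CPM summed over the 52 genes. Among the most abundant members of each class it had 66.5 CPM of Cdk1, 47.3 of Ccna2, 22.9 of Aurka, 49.6 of Pbk, 41.1 of Mad2l1 and 31.7 of Nuf2. It also had 34.4 CPM of Birc5, 64.7 of Tpx2, 41.6 of Prc1 and 179 of Anln.

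WT replicate 5 had 363 CPM summed over the 52 genes. In that library Ccna2 had 4.18 CPM, Bub1b 7.12, Nuf2 2.15, Cenpa 6.67 and Incenp 13. The motors Kif11 and Kif23 had 4.07 and 5.94 CPM, Racgap1 8.25, Smc4 54.0 and Mki67 16.9.

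Mad2l1 stood apart in KI replicate 2, at 10.1 CPM, and Atad3a in WT replicate 4, at 61.4 CPM.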

How the results depend on the processing

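In WT-BAPN against WT, 41 of the 52 genes rose with all libraries. The number was 40 with DESeq2 size factors, 48 with DESeq2, 49 with limma voom, 42 with no filter on low counts, 33 when only the 2 groups were fitted and 48 at an adjusted p under 0.1. Leaving out 1 library at a time gave 16 (without WT replicate 1) to 49 (without WT replicate 5). The average over genotypes gave 40 calls, and 21 (without KI replicate 5) to 50 (without WT replicate 5) with 1 library left out. In the other 4 comparisons 0 members were called under every alternative run, and no called member changed sign.

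The labels do not say whether the replicate numbers pair the libraries. The correlation of same-numbered libraries ran from -0.11 to 0.57 between WT-BAPN and WT, with 5 of 6 over 0.1. Between KI-BAPN and KI it ran from -0.49 to 0.40. Differently numbered libraries were not correlated for comparison, so these values do not settle whether the numbers mark pairs. With the number as a replicate block, 27 members were called in WT-BAPN against WT and 5 in the average over genotypes.

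Low counts limit the least abundant members, whose fitted changes depend on few reads. In KI replicates 3, 4 and 5, 21 to 30 of the 52 genes were under 0.5 CPM. The controls of the wild-type comparison were affected too. In WT replicates 1 to 6 the number of members under 0.5 CPM was 9, 5, 14, 8, 0 and 16, and in WT-BAPN replicate 1 it was 7.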
